A study of Mus musculus with 30 samples.

Results

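DNA replication and nucleotide supply were described in mouse small intestinal epithelium through 38 genes that are used in S phase, the part of the cell cycle in which the genome is copied. The members were the rows of the count table whose gene symbol is on the list, 38 of 54146 genes, and each symbol matched exactly 1 row. They were sorted by role into origin licensing (4 genes), the replicative helicase (10), polymerases and primase (6), clamp, loader and strand joining (7), nucleotide supply (5) and the copying of chromatin and DNA methylation (6).

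All animals were female C57BL/6J mice of 8 to 10 weeks, marked WT in the labels of both treatments, that had been moved from standard chow to the semi-purified AIN93G diet, which lacks dietary ligands of the aryl hydrocarbon receptor (AHR), for 1 week. They received by gavage either vehicle or 10 µg of indolo[3,2-b]carbazole (ICZ), a diet-derived agonist of that receptor, in corn oil, and the epithelium was taken 12 h later. Each epithelium was released by EDTA in 5 successive steps, F1 to F5, and libraries that read the 3′ ends of transcripts were prepared from the total RNA of each fraction. There were 3 vehicle mice with 15 libraries and 3 ICZ mice with 14, because ICZ replicate 3 has no F1 library among those analysed here. The replicates are called biological in the labels. Over all genes tested, mice with the same number in both treatments deviated together, but over the replication genes alone this was less clear. Values from a fit with the replicate number as a block are printed beside the ICZ results that it changes. The pairing was taken from the same counts that this fit tests, so the blocked results are not independent of that choice.

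In the intestine, cells divide in the crypts, where stem cells at the base feed a zone of rapidly dividing progenitors, and stop dividing as they move onto the villus. Replication starts when ORC, CDC6 and CDT1 load the MCM helicase onto origins. CDC45 and GINS then activate the helicase, polymerase alpha with primase starts each strand, polymerases delta and epsilon extend it on the PCNA clamp that RFC loads, and FEN1 and LIG1 join the fragments. Ribonucleotide reductase, thymidylate synthase, thymidine kinase and dUTPase set the supply of building blocks, while CAF-1, UHRF1 and DNMT1 restore nucleosomes and methylation behind the fork. Many of these genes are known targets of E2F transcription factors.

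Reads assigned to genes numbered 4359673 to 7819837 per library, with a median of 6351137, and the 10 most abundant genes took 22.4% to 54.3% of them. The highest of these shares belonged to the F5 library of ICZ replicate 1, which stood apart from the others. The main medians and counts of calls within F5, and from F2 to F5 in ICZ mice, are also given without it. Where F2 to F5 were added per mouse, some results are also given with F5 left out of every mouse. Most fold changes of single genes and of other gene lists that include this library are given only with it. All 12 absorptive enterocyte markers and all 7 Paneth cell markers had reads in every assigned library, as the tissue label implies. Of 7 goblet cell markers 6 did, and Muc2 had no reads in any of the 29 libraries. Pold4, Skp2 and Kif11, from the other lists used below, had none either, so a level of 0 in this table need not mean absent RNA. From F1 to F5 in vehicle mice, 11 of 12 absorptive enterocyte markers fell and 8 of 10 stem cell markers rose, so the later fractions held less RNA of villus type and more of crypt type. Levels are counts per 1000000 reads (CPM) scaled by TMM library sizes, folds are on the log2 scale with their standard error, and a gene was called at a Benjamini-Hochberg adjusted p below 0.05 in edgeR's quasi-likelihood test over all genes.

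The promoters of the members were searched for short runs of letters. RefSeq windows of 300 bases on GRCm38.p6, from 250 before to 50 after a transcription start, were found for 34 of the 38 genes, as 42 windows, and none was found for Mcm4, Gins1, Gins2 and Pole. E2F-type letters, spelled TTTCCCGC, TTTCGCGC, TTTGCCGC or TTTGGCGC and searched on both strands, occurred in 15 of the 42 windows (35.7%), against 2.26% of all 32851 windows of this length. By gene they occurred in 3 of 4 licensing genes, 4 of 7 helicase genes, 2 of 5 polymerase genes, 2 of 7 clamp genes, 4 of 6 chromatin genes and 0 of 5 nucleotide supply genes. CCAAT occurred in 23 of the 42 windows (54.8%), against 37.4% of all windows, and in all 7 helicase genes that have a window. TTTGAA, the letters of the CHR element, occurred in 11.9% of the windows, against 17.9% of all windows. A match is a run of letters and was not tested as a binding site, and its absence says only that those letters are not in the window.

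The windows of 4 MCM genes and of Pola1 are shown as examples of the 15 genes that hold E2F-type letters, taken among genes that rose between fractions. Mcm2, Dut and Rrm1 rose as well, and their windows hold none of these letters. E2F-type letters are in capitals, on either strand, and where 2 matches overlap they form 1 longer run of capitals.
Mcm3, chr1:20820263-20820562, minus strand: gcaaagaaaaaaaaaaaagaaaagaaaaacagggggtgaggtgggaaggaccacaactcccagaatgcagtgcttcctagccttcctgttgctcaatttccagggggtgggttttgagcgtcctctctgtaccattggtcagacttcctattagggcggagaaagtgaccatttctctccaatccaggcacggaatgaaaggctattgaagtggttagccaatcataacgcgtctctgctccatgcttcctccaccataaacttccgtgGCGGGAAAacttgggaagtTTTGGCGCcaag
Mcm5, chr8:75109259-75109558, plus strand: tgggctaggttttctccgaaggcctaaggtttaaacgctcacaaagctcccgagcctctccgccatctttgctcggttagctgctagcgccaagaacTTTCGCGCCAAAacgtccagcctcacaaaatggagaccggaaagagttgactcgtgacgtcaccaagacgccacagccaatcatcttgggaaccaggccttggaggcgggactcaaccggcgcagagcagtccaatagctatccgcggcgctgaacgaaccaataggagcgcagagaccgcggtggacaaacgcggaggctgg
Mcm6, chr1:128359656-128359955, minus strand: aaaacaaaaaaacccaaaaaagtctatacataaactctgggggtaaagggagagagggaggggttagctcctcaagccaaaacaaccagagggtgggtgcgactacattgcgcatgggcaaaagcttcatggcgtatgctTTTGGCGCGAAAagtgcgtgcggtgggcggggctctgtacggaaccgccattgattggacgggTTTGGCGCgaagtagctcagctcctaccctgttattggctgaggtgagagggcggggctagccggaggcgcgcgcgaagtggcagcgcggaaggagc
Mcm7, chr5:138171834-138172133, minus strand: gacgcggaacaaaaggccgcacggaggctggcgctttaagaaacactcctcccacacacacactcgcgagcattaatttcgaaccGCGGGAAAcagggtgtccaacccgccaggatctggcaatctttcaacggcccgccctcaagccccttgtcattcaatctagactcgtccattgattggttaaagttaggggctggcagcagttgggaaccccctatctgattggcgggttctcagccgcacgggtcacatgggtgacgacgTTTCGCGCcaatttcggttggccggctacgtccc
Pola1, chrX:93632106-93632405, minus strand: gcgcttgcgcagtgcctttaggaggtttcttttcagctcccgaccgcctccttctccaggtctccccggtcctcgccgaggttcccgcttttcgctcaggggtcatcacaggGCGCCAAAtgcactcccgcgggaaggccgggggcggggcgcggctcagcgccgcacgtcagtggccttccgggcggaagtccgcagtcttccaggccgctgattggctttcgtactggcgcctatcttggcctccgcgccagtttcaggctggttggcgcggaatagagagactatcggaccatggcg

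The core letters of the AHR response element, TNGCGTG, occurred in 5 of the 42 windows (11.9%), against 5.07% of all windows, and the 5 genes were Cdt1, Mcm2, Pold2, Rfc4 and Rpa2. The windows of Mcm2 and Pold2 are shown because these 2 genes were higher after ICZ in the blocked fit described further on. The other 4 genes called in that fit, Rrm2, Tk1, Rrm1 and Pold1, have windows without these letters. The element's letters are in capitals.
Mcm2, chr6:88898731-88899030, minus strand: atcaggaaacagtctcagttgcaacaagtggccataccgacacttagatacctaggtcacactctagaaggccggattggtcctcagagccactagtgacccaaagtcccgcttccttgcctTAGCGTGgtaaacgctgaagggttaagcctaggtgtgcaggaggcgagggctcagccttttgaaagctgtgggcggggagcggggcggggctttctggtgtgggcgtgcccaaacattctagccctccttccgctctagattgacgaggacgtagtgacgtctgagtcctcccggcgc
Pold2, chr11:5878207-5878506, minus strand: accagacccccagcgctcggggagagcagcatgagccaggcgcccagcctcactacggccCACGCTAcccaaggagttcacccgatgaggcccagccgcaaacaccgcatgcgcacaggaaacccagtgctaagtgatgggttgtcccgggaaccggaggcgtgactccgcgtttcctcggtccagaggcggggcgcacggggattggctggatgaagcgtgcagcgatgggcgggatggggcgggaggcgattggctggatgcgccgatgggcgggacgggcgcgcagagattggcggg

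The first comparison asked how the replication genes are distributed over the 5 fractions in vehicle mice. Their transcripts were scarcest in F1 and most abundant in F4 and F5, and genes of all 6 roles were among those that rose from F1 to F5. The summed level of the 38 genes was 690, 421 and 521 CPM in F1 of vehicle replicates 1, 2 and 3, and 896, 962 and 1557 CPM in F5 of the same mice. Every F5 library was above every F1 library. The means over 3 mice were 544 ± 136 CPM in F1, 749 ± 27.2 in F2, 969 ± 108 in F3, 1109 ± 203 in F4 and 1138 ± 364 in F5 (SD, n = 3). In these bulk samples, fewer dividing cells in a fraction and less replication RNA in each cell cannot be told apart.

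**Figure D1:**
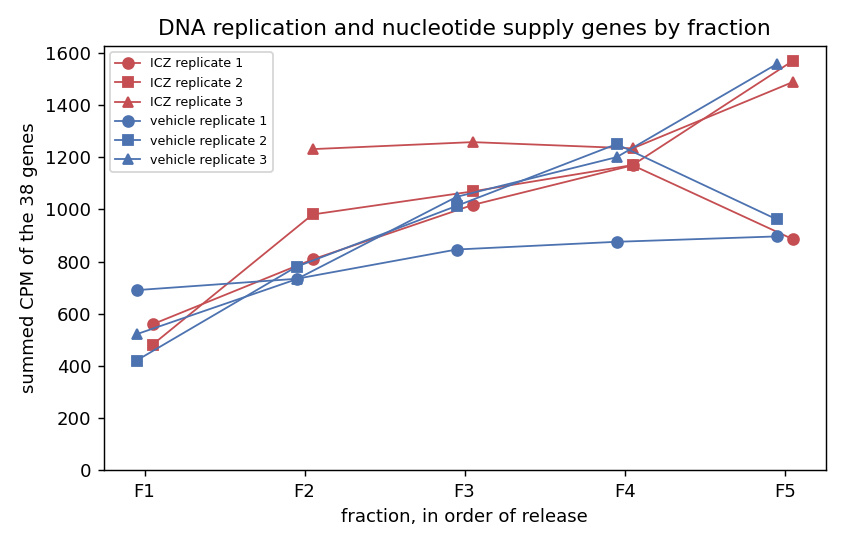
Summed level of the 38 genes in CPM (vertical axis) in each fraction in order of release (horizontal axis), with 1 point per library and lines joining the libraries of a mouse, blue for vehicle and red for ICZ. All 3 vehicle mice were lowest in F1, at 421 to 690 CPM, and the F5 libraries spread from 886 to 1569 CPM over both treatments.

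Of the 38 genes, 30 rose from F1 to F5 and none fell, where 14.9% of the 13164 genes tested were called higher and 13.2% lower. Gins2 and Fen1 had too few reads to be tested, and the other 36 all had positive fold changes, from 0.37 to 2.59 with a median of 1.12, against a median of 0.02 over all genes tested. In CPM, 32 of the 38 genes had every F5 library above every F1 library, against 19.7% of the genes tested, and 33 were higher in F5 within each of the 3 mice, against 27.2%. The number called depended on single mice: it was 33 without vehicle replicate 1, 18 without replicate 2 and 10 without replicate 3, and the median fold change was 1.40, 0.94 and 0.91. Across all 5 fractions together, 25 of the 36 tested genes differed, against 20.6% of all genes tested. That number was 4 without vehicle replicate 2 and 3 without replicate 3. The shares of all genes called with a mouse left out are not given here.

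The size of the rise differed between the mice. The summed level in F5 was 1.30 times that in F1 in vehicle replicate 1, 2.29 times in replicate 2 and 2.99 times in replicate 3. The summed stem cell markers ranked the mice in the same order, at 1.53, 2.96 and 3.50 times, and the absorptive enterocyte markers in the reverse order, at 0.650, 0.456 and 0.355 times. The part of these markers in the spread between mice was not tested.

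All 4 origin licensing genes rose. Orc1, the ATPase subunit of the origin recognition complex, was read at 1.52, 0 and 0.147 CPM in F1 and at 1.80, 3.20 and 4.81 CPM in F5 of vehicle replicates 1 to 3. The groups did not overlap, and the fold change of 2.59 ± 0.71 (adjusted p = 0.0125) rests on few reads. Orc6, the smallest subunit of the complex, stood at 6.89, 4.28 and 4.86 CPM in F1 and at 12.1, 13.9 and 17.1 CPM in F5, a fold change of 1.40 ± 0.26 (adjusted p = 0.000854). Its lowest F5 library was well above its highest F1 library. Cdt1, which brings the MCM ring to origins, rose less, from 19.995, 16.2 and 19.7 CPM in F1 to 23.6, 24.7 and 44.7 CPM in F5, by 0.72 ± 0.22 (adjusted p = 0.0202). Cdc6, its partner in loading, rose by 1.06 ± 0.30 (adjusted p = 0.013).

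Of the 10 helicase genes 8 rose, and the whole MCM2 to MCM7 ring was among them. Mcm7, a ring subunit, was at 40.3, 13.8 and 26.2 CPM in F1 and at 44.5, 54.9 and 113 CPM in F5, a fold change of 1.34 ± 0.34 (adjusted p = 0.0132). Replicate 1 differed least between the 2 fractions and replicate 2 had the lowest F1 level. Mcm6, another ring subunit, rose from 24.7, 24.1 and 20.02 CPM to 37.97, 48.9 and 63.3 CPM, by 1.11 ± 0.19 (adjusted p = 0.000504), with no overlap. Mcm2 was the ring gene with the smallest fold change, 0.75 ± 0.23 (adjusted p = 0.0214), and its F1 and F5 levels overlapped, since vehicle replicate 1 went from 19.9 to 18.5 CPM. The other ring genes, Mcm3, Mcm4 and Mcm5, rose by 1.43, 1.16 and 1.29. Mcm10 and Cdc45, which act when the helicase is switched on, rose by 1.05 and 1.11. Gins1, a GINS subunit, had a fold change of 0.70 ± 0.35 (adjusted p = 0.141). Gins2 was not tested, at 0.414, 0 and 0.736 CPM in F1 and 0.900, 0.933 and 0.283 CPM in F5.

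Among polymerases and primase, 5 of 6 genes rose. Pola1 (chrX:93304767-93632155 on GRCm38, minus strand), the catalytic subunit of polymerase alpha that extends RNA primers, had the smallest p of the 38 genes, and its levels were 14.9, 11.7 and 13.8 CPM in F1 and 32.2, 32.0 and 49.3 CPM in F5. All 3 F5 libraries were far above the highest F1 library, and the fold change was 1.47 ± 0.18 (adjusted p = 2.88e-05). Pola2, the regulatory subunit of the same enzyme, had a fold change of 0.43 ± 0.25 (adjusted p = 0.223) and its highest mean in F2. Pold2, an accessory subunit of polymerase delta, rose from 17.8, 10.95 and 14.4 CPM to 21.8, 26.9 and 38.5 CPM, by 0.98 ± 0.21 (adjusted p = 0.002). Prim1, the primase catalytic subunit, Pold1, the catalytic subunit of polymerase delta, and Pole, that of polymerase epsilon, rose by 1.09, 0.99 and 1.03.

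The clamp, loader and strand joining genes had the smallest median fold change of the 6 roles, 0.75 over the 6 tested, and 4 of them rose. Lig1, the ligase that seals Okazaki fragments, went from 126, 66.7 and 75.1 CPM in F1 to 136, 134 and 260 CPM in F5, by 0.95 ± 0.30 (adjusted p = 0.0345). The groups did not overlap, but replicate 1 moved little. Rpa2, a subunit of the protein that coats single-stranded DNA, went from 44.7, 32.1 and 31.6 CPM to 52.7, 46.4 and 78.0 CPM, by 0.69 ± 0.21 (adjusted p = 0.0205). Pcna, the sliding clamp, rose by 0.65 ± 0.17 (adjusted p = 0.0085) and Rfc3, a clamp loader subunit, by 0.81 ± 0.16 (adjusted p = 0.00111). The loader subunits Rfc4 and Rfc5 had fold changes of 1.18 ± 0.55 (adjusted p = 0.119) and 0.37 ± 0.19 (adjusted p = 0.159). Fen1, the flap nuclease, was not tested, at 0.827, 0.635 and 0.147 CPM in F1 and 0.900, 0.533 and 0.849 CPM in F5.

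Of the 5 nucleotide supply genes 4 rose. Dut, the dUTPase that keeps uracil out of DNA, stood at 16.0, 10.6 and 14.3 CPM in F1 and at 28.97, 28.3 and 48.7 CPM in F5, a fold change of 1.35 ± 0.20 (adjusted p = 0.000116). Rrm1, the large subunit of ribonucleotide reductase, rose from 26.8, 17.3 and 21.6 CPM to 42.7, 40.9 and 69.5 CPM, by 1.19 ± 0.19 (adjusted p = 0.000238). Neither gene's groups overlapped. Rrm2, the S phase-limited small subunit of the same enzyme, overlapped: vehicle replicate 1 had 15.2 CPM in F1 and 14.2 CPM in F5, and its fold change was 0.74 ± 0.31 (adjusted p = 0.0904). Tk1, thymidine kinase, rose from 33.1, 13.5 and 22.5 CPM to 39.2, 47.9 and 72.5 CPM, by 1.19 ± 0.29 (adjusted p = 0.0101), and Tyms, thymidylate synthase, by 1.20 ± 0.20 (adjusted p = 0.000407).

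Of the 6 chromatin genes 5 rose, and all 6 had every F5 library above every F1 library. Dnmt1, the maintenance methyltransferase, went from 32.0, 17.3 and 20.9 CPM to 41.6, 45.5 and 73.0 CPM, by 1.17 ± 0.24 (adjusted p = 0.00251). Hells, a chromatin remodeller, went from 25.1, 13.2 and 26.8 CPM to 41.2, 39.2 and 61.9 CPM, by 1.13 ± 0.20 (adjusted p = 0.000552). Cdca7, the partner of Hells, rose by 1.22 and Uhrf1, which guides DNMT1 to newly copied DNA, by 1.45. The 2 CAF-1 histone chaperone genes were Chaf1a, which rose by 1.48 ± 0.31 (adjusted p = 0.00222), and Chaf1b, at 1.18 ± 0.44 (adjusted p = 0.0577).

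**Figure D2:**
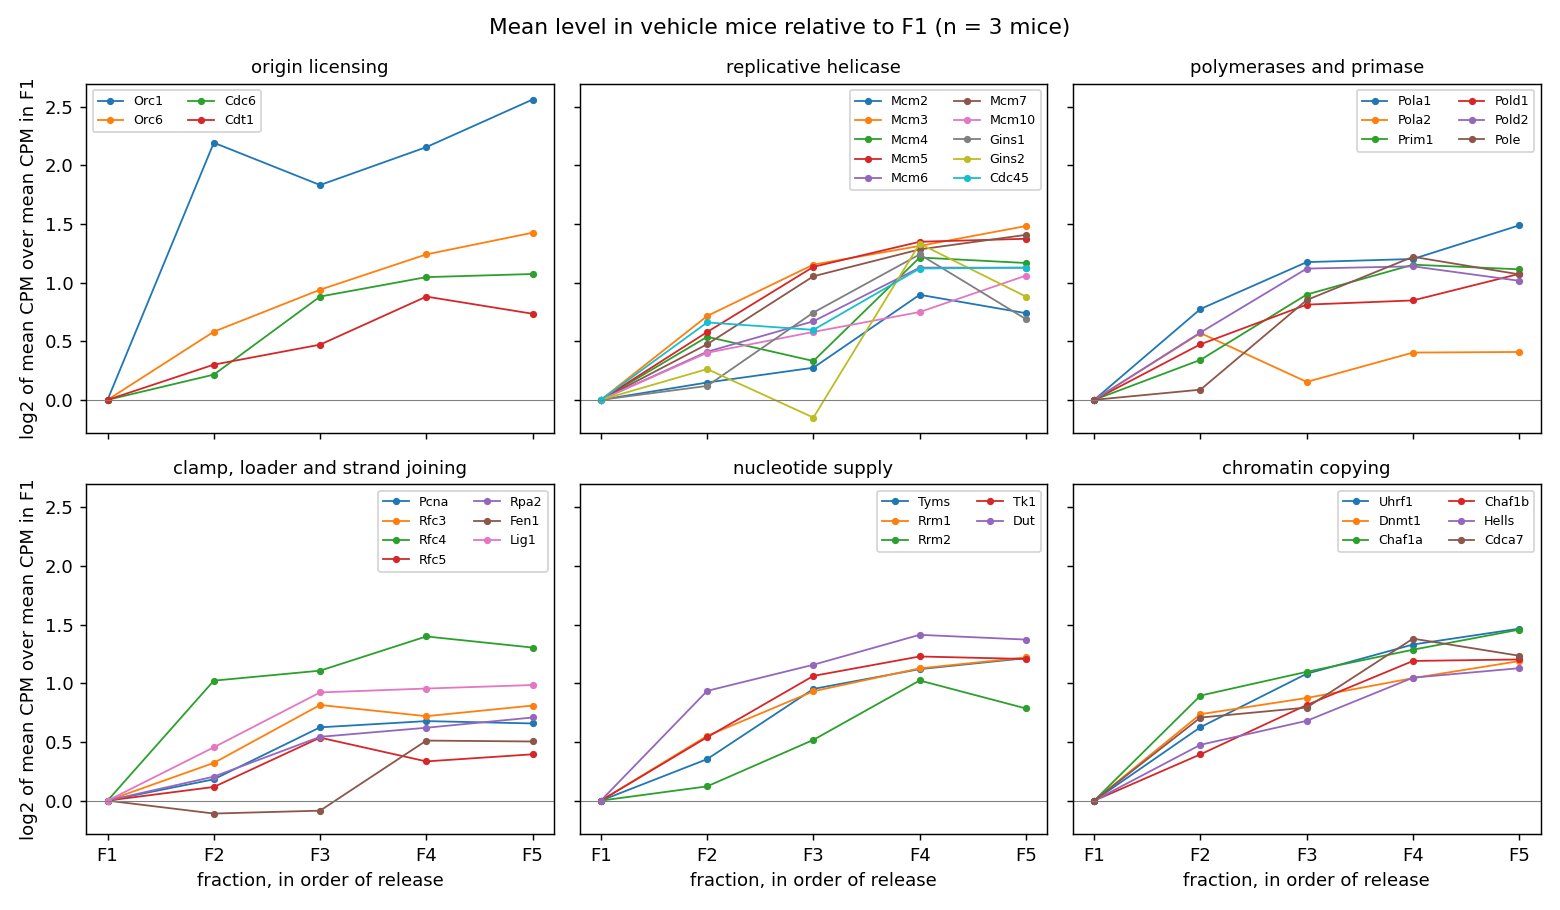
Mean level of each gene over 3 vehicle mice in fractions F1 to F5 (horizontal axis), as the log2 ratio to its mean in F1 (vertical axis), in 1 panel per role and 1 line per gene. Of the 38 genes, 36 had their lowest mean in F1, and 35 had their highest mean in F4 or F5; Orc1, Gins2, Rfc4 and Fen1 rest on few reads.

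Mean levels climbed from F1 to F4, and from F4 to F5 the mice went different ways. The summed level went from 876 to 896 CPM in vehicle replicate 1, from 1250.1 to 962 CPM in replicate 2 and from 1200 to 1557 CPM in replicate 3. The highest mean in vehicle mice fell in F5 for 19 genes, in F4 for 16, in F3 for Rfc3 and Rfc5 and in F2 for Pola2. Between neighbouring fractions, the median fold change of the 36 tested genes was 0.48 from F1 to F2 (36 positive), 0.38 from F2 to F3 (32 positive), 0.25 from F3 to F4 (34 positive) and 0.02 from F4 to F5 (22 positive). None of the 36 was called by edgeR at any single step, where 0%, 0%, 0.41% and 0.0684% of all genes tested were called higher. At an unadjusted p below 0.05 there were 12, 8, 4 and 0, and DESeq2 called 1, 0, 0 and 0. Without vehicle replicate 1, 5 were called from F1 to F2 and 2 from F3 to F4. The shares of all genes at the unadjusted level and without vehicle replicate 1 are not given here, so these counts lack a background.

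The later part of the climb, from F2 to F5, could be tested in both treatments. In vehicle mice 8 of 36 genes rose (Orc6, Mcm6, Mcm10, Pola1, Tyms, Rrm1, Uhrf1 and Hells), with a median fold change of 0.61, where 4.19% of all genes tested were called higher and 4.68% lower. The number was 17 without vehicle replicate 1, 2 without replicate 2 and 0 without replicate 3. In ICZ mice 8 of 37 rose (Mcm3, Mcm10, Pola1, Prim1, Tyms, Rrm1, Dut and Hells), with a median of 0.45, where 6.69% were called higher and 10.5% lower. Without the F5 library of ICZ replicate 1 the number was 21 and the median 0.60, and it was 18, 2 and 2 without ICZ replicates 1, 2 and 3. In the fit without the replicate block, 1 gene was called in vehicle mice and 4 in ICZ mice. The shares of all genes called in these alternative fits are not given here, so the changes in number are not set against all genes. Pola1 was among the genes that rose in both treatments, by 0.70 ± 0.17 (adjusted p = 0.016) in vehicle mice and by 0.82 ± 0.15 (adjusted p = 0.00113) in ICZ mice.

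Genes of other parts of the cell cycle and of nucleotide metabolism were compared over the same fractions. From F1 to F5 in vehicle mice, 26 of 27 tested mitosis genes rose, with a median fold change of 1.32, Kif23 and Ndc80 having 1.55 and 1.60. Of the replication genes outside the 38, 19 of 32 rose (median 0.76), and of the other nucleotide metabolism genes 17 rose and 6 fell of 28 (median 0.95), with Ctps, CTP synthase, at 1.73. The summed level of those nucleotide genes showed no climb, with means of 1289 ± 62.9 CPM in F1 and 1187 ± 81.4 CPM in F5 (SD, n = 3). That sum leans on a few abundant genes, with Cda at 61587 reads over the assigned libraries and Samhd1, the next, at 23368. Of the genes that control entry into S phase, 14 rose and 1 fell of 27, with Ccne1, cyclin E1, at 1.57. Their summed level in F5 was 0.976, 1.17 and 1.43 times that in F1 in vehicle replicates 1 to 3. Ccnd2 and Cdkn1a had the most reads of that list and weigh most in its sum. Other lists moved as well: all 7 Paneth cell markers rose, 4 of 6 goblet cell markers fell, and all 11 tissue dissociation stress genes rose, with a median of 2.40. The summed stress genes were at 497 to 1160 CPM in F1 and at 2843 to 5144 CPM in F5. Whether these genes have a part in the changes of the replication genes was not tested.

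The second comparison asked whether ICZ changed these genes, on the summed counts of F2 to F5, the fractions present for all 6 mice. Levels were slightly higher after ICZ in 37 of 38 genes, but no gene passed the test without the replicate block, and 6 passed with it. The summed level was 856, 1025 and 1164 CPM in vehicle replicates 1 to 3 and 1004, 1249 and 1340 CPM in ICZ replicates 1 to 3. The treatments overlapped, each ICZ mouse was above the vehicle mouse of its number, and the means were 1015 ± 154 and 1198 ± 174 CPM (SD, n = 3), a ratio of 1.18.

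Without the block, edgeR called 0 of the 38 genes and 0% of the 15497 genes tested in either direction, and the smallest adjusted p of the 38 was 0.846. At an unadjusted p below 0.05 there were 10 of the 38 and 886 of all genes, and DESeq2 called 0 of the 38 and 0.0452% of all genes higher. The median fold change was 0.25 over the 38 genes and 0.01 over all genes, and 37 of 38 were positive, against 51.2% of all genes. Leaving out 1 mouse at a time moved the median between 0.10, without vehicle replicate 1, and 0.33, without ICZ replicate 1, and it was 0.15 without ICZ replicate 3. With F5 left out of every mouse, and so without the F5 library of ICZ replicate 1, the median was 0.22, 35 of 38 were positive and 0 were called. In 7 of the 38 every ICZ mouse was above every vehicle mouse (Mcm2, Mcm4, Pola2, Fen1, Rrm2, Chaf1a and Chaf1b), against 5.65% of all genes. In 30 of the 38 the ICZ mouse was higher in each of the 3 same-numbered pairs, against 19.7% of all genes.

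With the replicate number as a block, 6 of the 38 genes rose after ICZ and none fell, where 0.749% of all genes tested were called higher and 0.742% lower. They were Rrm2, Tk1, Rrm1, Mcm2, Pold1 and Pold2, so that 3 of 5 nucleotide supply genes, 2 of 6 polymerase genes and 1 of 10 helicase genes passed, and 0 of the licensing, clamp and chromatin genes. The number rested on single pairs, at 2 without pair 1, 0 without pair 2 and 3 without pair 3. The shares of all genes called without a pair are not given here. With F5 left out of every mouse the blocked fit called 3 of the 38, where 165 of 14673 genes tested were called in either direction. These were Rrm2 (0.61 ± 0.11, adjusted p = 0.00521), Tk1 (0.46 ± 0.08, adjusted p = 0.00672) and Rrm1 (0.34 ± 0.08, adjusted p = 0.0492), while Mcm2, Pold1 and Pold2 had adjusted p of 0.153, 0.143 and 0.21. With a crypt score as a covariate in place of the block, Rrm2 and Tk1 were called, where 0.316% of all genes were called higher.

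**Figure D3:**
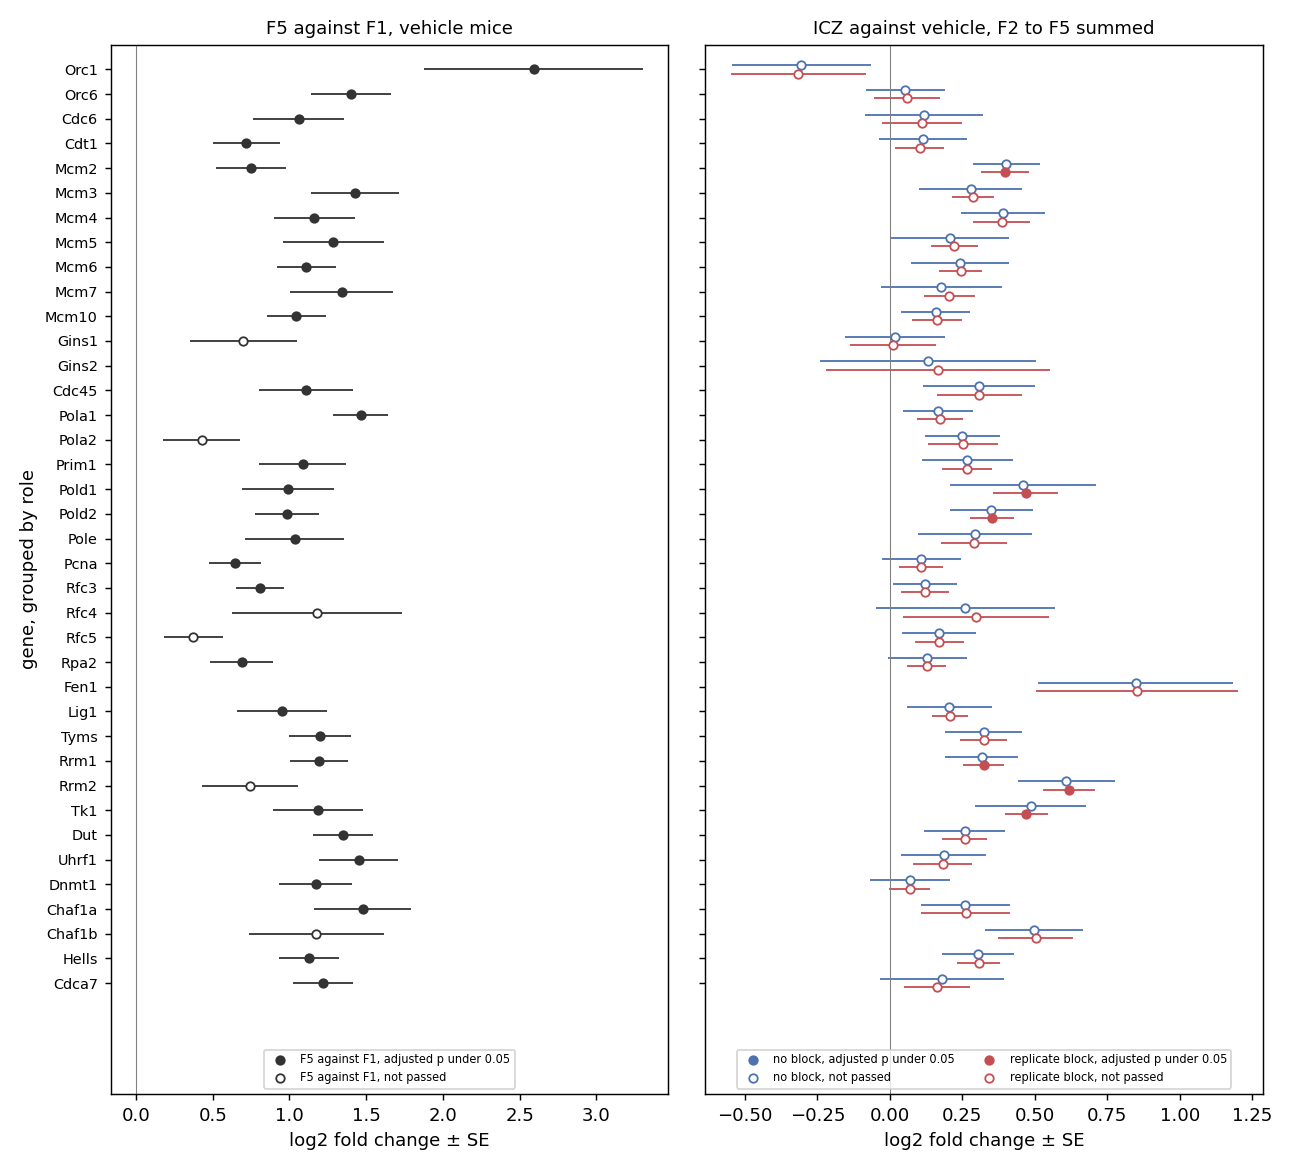
Log2 fold changes with their standard errors (horizontal axes) for each gene (vertical axis), from F1 to F5 in vehicle mice on the left and from vehicle to ICZ with F2 to F5 added per mouse on the right. Filled points passed an adjusted p of 0.05; on the right, 6 red points with the replicate block are filled and no blue point without it is.

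Rrm2 (chr12:24708241-24714146 on GRCm38, plus strand), whose product is the subunit of ribonucleotide reductase that dividing cells make in S phase, had the smallest p. It stood at 13.0, 18.3 and 19.8 CPM in vehicle mice and at 22.2, 28.1 and 27.7 CPM in ICZ mice, with no overlap, and the fold change was 0.61 ± 0.17 without the block and 0.62 ± 0.09 with it (adjusted p = 0.00254). It was also called by edgeR with no filter on low counts (adjusted p = 0.0397). Without pair 2 the blocked fit called none of the 38.

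Tk1 was at 40.2, 49.1 and 56.0 CPM in vehicle mice and at 48.8, 76.1 and 78.7 CPM in ICZ mice. The groups overlapped through ICZ replicate 1, and the blocked fold change was 0.47 ± 0.08 (adjusted p = 0.00531). Rrm1 was at 37.7, 43.1 and 51.5 CPM in vehicle mice and at 49.3, 56.1 and 59.5 CPM in ICZ mice, overlapping, with 0.32 ± 0.07 (adjusted p = 0.0319) in the blocked fit. Tyms and Dut, the remaining supply genes, were higher in all 3 pairs without passing, at 0.32 ± 0.13 and 0.26 ± 0.14 without the block.

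Mcm2 was at 21.0, 23.3 and 23.9 CPM in vehicle mice and at 27.5, 28.3 and 34.3 CPM in ICZ mice, with no overlap and 0.40 ± 0.08 in the blocked fit (adjusted p = 0.0263). Pold1 went from 6.70, 9.95 and 12.5 CPM to 9.68, 14.5 and 15.9 CPM, with 0.47 ± 0.11 in the blocked fit (adjusted p = 0.0497). Pold2 went from 23.8, 30.2 and 32.9 CPM to 31.5, 38.7 and 40.7 CPM, with 0.35 ± 0.08 (adjusted p = 0.0299). Both polymerase delta genes overlapped between treatments and were higher in each pair. Chaf1b was at 5.45, 7.52 and 7.54 CPM in vehicle mice and at 8.70, 9.46 and 10.8 CPM in ICZ mice, with no overlap, and missed the threshold in the blocked fit (adjusted p = 0.0716).

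**Figure D4:**
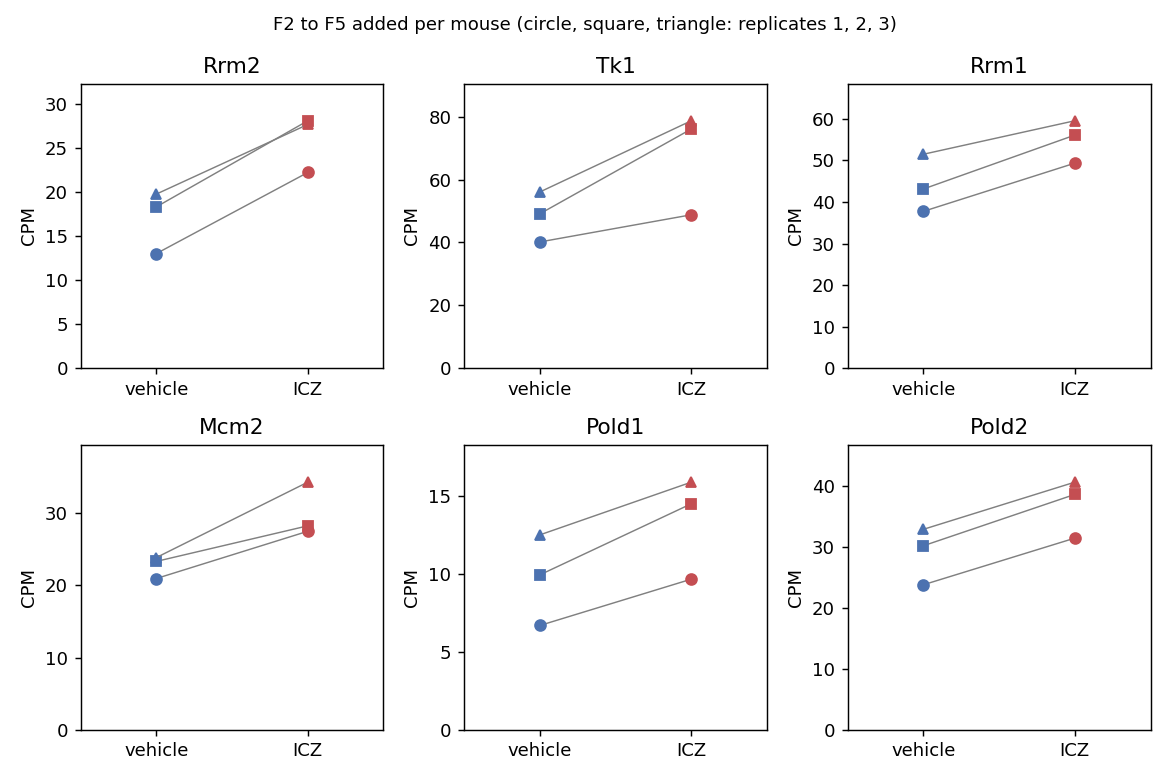
Level in CPM (vertical axis, from 0) of the 6 genes called in the blocked fit, with F2 to F5 added per mouse, in vehicle and ICZ mice (horizontal axis); grey lines join mice of the same replicate number. All lines slope up, and only for Rrm2 and Mcm2 do all ICZ mice lie above all vehicle mice.

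Orc1 was the only one of the 38 genes with a negative fold change, at 2.64, 2.36 and 2.93 CPM in vehicle mice and 1.52, 2.49 and 2.38 CPM in ICZ mice (-0.30 ± 0.24, adjusted p = 0.894). The licensing genes as a group had a median fold change of 0.08, against 0.32 for nucleotide supply, 0.28 for polymerases, 0.22 for the helicase, 0.22 for chromatin copying and 0.17 for clamp, loader and strand joining. Fen1 had the largest fold change, 0.85 ± 0.34, on few reads, at 0.519 to 0.838 CPM in vehicle mice and 0.892 to 1.44 CPM in ICZ mice. Fen1 and Tk1 each overlap genes on the opposite strand (Gm10143 and Tmem258, and Afmid and Gm20708), as do 14 of the 38, and no source used here states whether the counting used strand. Lig1, Dnmt1, Pcna and Rpa2, among the more abundant transcripts, had fold changes of 0.21 ± 0.15, 0.07 ± 0.14, 0.11 ± 0.14 and 0.13 ± 0.14.

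Mitosis genes moved alongside, with a median fold change of 0.25, 25 of 27 positive, and 7 of 27 called higher in the blocked fit. Replication genes outside the 38 had a median of 0.15 (29 of 32 positive, 0 called in the blocked fit), and the genes that control entry into S phase one of 0.10 (20 of 27 positive, 2 called higher). The summed level of the latter was 1771 to 1903 CPM in vehicle mice and 1921 to 2019 CPM in ICZ mice, without overlap. That sum mostly follows Ccnd2 and Cdkn1a, with 128952 and 86930 reads over the assigned libraries, and says little about the rest of the list. Other nucleotide metabolism genes had a median of 0.12, with 22 of 29 positive and 3 called higher. Stem cell markers had a median of 0.07 with 0 of 10 called in the blocked fit, and their summed level was 490 to 803 CPM in vehicle mice and 460 to 991 CPM in ICZ mice. The summed absorptive enterocyte markers were at 19541 to 34118 CPM and 21704 to 30806 CPM.

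Lists of other cells and of handling had sums that overlapped between the treatments. Of 12 tested immune cell markers 11 had negative fold changes (median -0.51, 0 called in the blocked fit), with sums of 237 to 382 CPM in vehicle mice and 186 to 252 CPM in ICZ mice, and the B cell markers Cd79a and Ms4a1 at 0 in 27 and 14 of the 29 libraries. All 11 stress genes had negative fold changes (median -0.58, 7 called lower in the blocked fit), with sums of 1204 to 2691 CPM and 748 to 1799 CPM. Of 5 tested stroma markers 4 were positive and 2 were called higher in the blocked fit, on sums of 2.03 to 5.83 CPM and 5.49 to 39.7 CPM. The part of these lists in the changes of the replication genes was not tested.

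Within single fractions, edgeR without the block called none of the 38 genes after ICZ in any fraction, where 0.0324%, 0%, 0.00815%, 0% and 0% of all genes tested were called higher in F1 to F5 and 0.0165% were called lower in F2. The genes at an unadjusted p below 0.05 numbered 2 in F1, 15 in F2, 9 in F3, 1 in F4 and 0 in F5, and DESeq2 called 0, 1, 1, 0 and 0. The share of all genes at that unadjusted level is not given here, so these counts are not read as a result about the 38. The median fold changes were -0.11 in F1 (13 of 34 positive), 0.42 in F2 (34 of 36), 0.19 in F3 (31 of 36), 0.09 in F4 (26 of 36) and 0.21 in F5 (33 of 36), while positive fold changes made up 48.4%, 50%, 49.4%, 47.6% and 51.7% of all genes. Without the F5 library of ICZ replicate 1, the median in F5 was 0.41. With the replicate block, the median was -0.02 in F1 (14 of 34 positive) and 0.23 in F5 (29 of 36 positive).

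**Figure D5:**
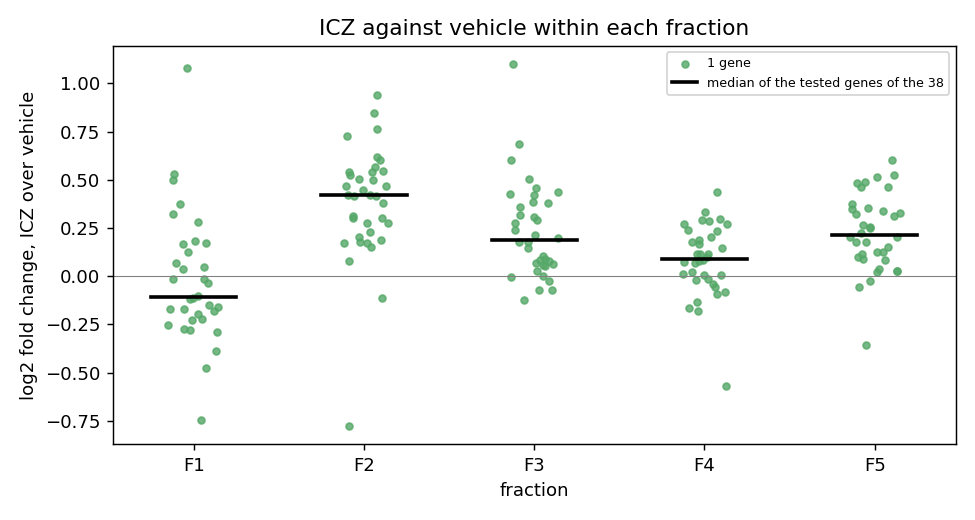
Log2 fold change from vehicle to ICZ (vertical axis) of each tested gene of the 38, as 1 point per gene spread sideways for visibility, within each fraction (horizontal axis); black lines are medians. The median lay at -0.11 in F1 and was highest in F2, at 0.42; F1 had 2 ICZ libraries and the other fractions 3.

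The gap between treatments was clearest in F2. There 14 of the 38 genes had every ICZ library above every vehicle library, against 9.75% of all genes, and this was so for 8 in F3 (8.53%), 2 in F4 (3.94%) and 0 in F5 (3.19%). In none of the 38 was every ICZ library below every vehicle library in F2 to F5, against 7.12%, 6.43%, 4.9% and 4.86% of all genes. In F1, with 2 ICZ libraries, 2 were above (10.7%) and 2 below (9.11%). Rrm2 in F2 was at 7.83, 13.97 and 12.7 CPM in vehicle mice and at 18.3, 23.6 and 25.8 CPM in ICZ mice, without overlap. Its fold change there was 0.94 ± 0.22 (adjusted p = 0.145), and it was called in the blocked fit (0.95 ± 0.18, adjusted p = 0.00917) and by DESeq2 (adjusted p = 0.0312). Mcm7 was the other gene called in F2 with the block, at 0.58 ± 0.13 (adjusted p = 0.0326), where 0.768% of all genes were called higher. It stood at 34.6, 35.4 and 41.5 CPM in vehicle mice and at 43.1, 56.3 and 73.0 CPM in ICZ mice.

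In F2, Tk1 was at 35.3, 34.6 and 30.7 CPM in vehicle mice and at 36.9, 62.8 and 73.4 CPM in ICZ mice, so ICZ replicate 1 lay close to the vehicle mice. Without ICZ replicate 1, 5 genes were called in F2, namely Mcm3, Mcm7, Lig1, Rrm2 and Tk1, with Tk1 at 1.00 ± 0.15 (adjusted p = 0.00108). The share of all genes called in F2 without that mouse is not given here, so this count lacks a background. Markers of other cells differed in the same fraction. All 10 tested immune cell markers had negative fold changes in F2 (median -1.31), with sums of 330 to 777 CPM in vehicle mice and 139 to 255 CPM in ICZ mice. All 7 Paneth cell markers had positive ones (median 0.91), with sums of 5410 to 7281 CPM and 5693 to 16770 CPM, and the stem cell markers had a median of 0.40, with sums of 385 to 478 CPM and 394 to 834 CPM. Their part in the F2 values was not tested.

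In F3, Mcm4, a subunit of the MCM ring, had the largest fold change, 1.10 ± 0.23 (adjusted p = 0.25). It stood at 10.5, 7.54 and 9.13 CPM in vehicle mice and at 15.7, 16.1 and 26.2 CPM in ICZ mice, without overlap. DESeq2 called it (adjusted p = 0.0468), as did edgeR without vehicle replicate 1 (adjusted p = 0.0114). In the test of whether the ICZ effect differed between fractions, 0 of the 38 genes were called, either over 4 treatment by fraction terms together (0.00711% of all genes called) or as a slope over fraction number (0% of all genes called with a higher slope and 0.0142% with a lower one). At an unadjusted p below 0.05 there was 1 gene in each test, Mcm4 and Chaf1a, and DESeq2 called 0 in both. Without the F5 library of ICZ replicate 1 edgeR called 0 of the 38 in both tests, and 0 of the 36 tested in F5. The differences in size between F2 and the other fractions therefore did not pass a test.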

How the data were processed

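RNA of the 29 assigned libraries came as 1 deposited table of whole-number read counts per gene, not normalized by the authors. Reads were prepared with a QuantSeq 3′ kit, per the labels' protocols, and were counted with HTSeq 0.11.2 after alignment to GRCm38.p6 by BWA 0.7.17-r1188, per the submitters' processing notes. Not given in the sources used here are the annotation release, the strand setting and whether molecular identifiers were used. The table's 5 closing lines that name no gene stayed out of all totals; per library they held 9.15% to 14.7% (no feature), 3.61% to 5.10% (ambiguous), 18.0% to 26.5% (low alignment quality), 2.63% to 7.31% (unaligned) and 0% (not unique) of all reads.

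Groups came from the labels, and a sample labelled as undetermined entered no comparison. All 28 pairs of replicate libraries differed beyond sampling noise (chi-square per degree of freedom 5.18 to 111). Tests used edgeR 4.0.16 in R 4.3.3 on all genes kept by filterByExpr: TMM scaling, robust quasi-likelihood fits, Benjamini-Hochberg adjustment at 0.05. Standard errors were derived from each log2 fold change and its F statistic, as the size of the first divided by the root of the second. Fraction tests had the mouse as a block, as did the tests of whether the ICZ effect differed between fractions. The other ICZ tests had no block. Alternatives were DESeq2 1.42.0, DESeq2 size factors, no count filter, the replicate block, a crypt score covariate and leaving out each mouse. The labels give both treatments biological replicates 1 to 3. The title prefixes of same-numbered mice match for replicates 2 and 3 (WT3, WT4) and differ for replicate 1 (WT1 in vehicle, WT2 in ICZ), and no label says what a number or prefix stands for. Over all genes tested, deviations from group means correlated at 0.381, 0.247 and 0.472 between mice of 1 number, and at -0.424 to -0.0248 otherwise, so the numbers were taken as pairs. Over the replication genes alone they correlated at 0.324, 0.157 and 0.455 between mice of 1 number, and at -0.420 to 0.167 otherwise. Deviations from a group mean cancel out within the group, so positive values between same-numbered mice pull the other values down. The negative values are therefore not separate evidence of pairing. The value of 0.167, for vehicle replicate 2 with ICZ replicate 1, was above that of the replicate 2 pair, so these genes alone do not settle the pairing. The fits were tested on simulated data. Gene coordinates and overlaps came from GENCODE M21, matched by identifier without version, and promoters from RefSeq.

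The members, gene lists and tests were chosen with earlier results of these data known. Genes named with values in every sample were the 2 of each role with most reads, the 3 of smallest p in each main comparison and any that went against the majority; of other lists, up to 3 of smallest p. Mcm4, Pold1 and other examples were chosen after their values were seen.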

Additional observations from a re-analysis of the deposited data

Results flagged for a closer look

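The sample labelled as undetermined, which names neither a treatment nor a fraction and entered no comparison, held 7202 reads of the 38 genes among 7484796 gene reads, or 962 per 1000000. It was singled out because it lies outside the groups compared. The 29 assigned libraries ranged from 396 to 1752 per 1000000 by the same measure, so its level lay within their range. Of its reads 31.9% were unaligned and 40.8% were assigned to genes. In the assigned libraries these shares were 2.63% to 7.31% and 51.6% to 61.6%.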

How the results depend on the processing

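Every tested gene of the 38 kept a positive fold change from F1 to F5 in vehicle mice under all alternatives run, and the number called there stayed between 30 and 32 except when single mice were left out (10 to 33). For any difference among fractions, leaving out a mouse gave 3 to 32. For F2 against F1 it gave 0 to 5, DESeq2 1 and no count filter 6; for F3 against F2 no filter gave 1; for F4 against F3 no filter gave 1 and leaving out a mouse 0 to 2. From F2 to F5, leaving out a mouse gave 0 to 17 in vehicle mice and 2 to 18 in ICZ mice, and the fit with no replicate block gave 1 and 4; no filter gave 18 in vehicle mice, and 21 were called in ICZ mice without the F5 library of ICZ replicate 1, an alternative chosen after seeing the data. For ICZ in F2, DESeq2 called 1, no filter 5, the replicate block 2 and leaving out a mouse 0 to 5; in F3, DESeq2 called 1, no filter 3 and leaving out a mouse 0 to 1. With F2 to F5 added, no filter called 1, the replicate block 6 and the crypt score 2, and the block without pair 1, 2 or 3, also chosen after seeing the data, called 2, 0 and 3; the block with F2 to F4 added, likewise, called 3. The replicate block changed no other count of ICZ calls among the 38 genes. The cause of these changes was not tested, and most of these counts stand without the share of all genes called in the same setting.

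Directions were followed gene by gene only for the genes named by reads, smallest p or opposite direction. Of these, 3 with small ICZ fold changes turned. Other members turned as well, since fewer were positive with F5 left out of every mouse, and they are not listed here. Cdt1 was at -0.049 with F1 to F5 added and at -0.036 to 0.25 when 1 mouse was left out. Dnmt1 was at -0.017 with F1 to F5 added and at -0.025 to 0.18 when 1 mouse was left out. Orc6 was at -0.063 to 0.11 when 1 mouse was left out, and at -0.048 with the replicate block without pair 1. With 3 mice a group, the genes with the fewest reads (Gins2, Fen1, Orc1 and Rfc4) were too shallow for a small change to be detectable. Each of them overlaps a counted gene on the opposite strand, among them Gse1, Tmem258, Gm12743 and Eif4a2. In all, 14 of the 38 overlap such a gene, including Lig1 and Mcm7, with 29886 and 10476 reads over the assigned libraries. Whether reads were lost to these overlaps was not tested, so few reads need not mean little RNA.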
